A study of Mus musculus with 3 samples.

Results

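The cardiac transcription factors described here are 10 genes, Nkx2-5, Isl1, Hand1, Hand2, Tbx5, Tbx20, Mef2c, Myocd, Smyd1 and Irx4. They were found on the array by gene symbol and were read by 14 of the 39429 gene probes on the array, each 60 bases long. The array carried 30458 gene symbols in all. Of the 10 genes 7 could be tested, while Tbx5, Mef2c and Myocd were too dim. Among the 7, the ratio furthest from 0 was that of Hand2, 2.83-fold lower in the mutant, and none passed the test across all genes.

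The mutant samples were embryoid bodies carrying Dido3deltaCT, a C-terminally truncated form of the Dido3 protein, and the reference samples were wildtype control embryoid bodies. Embryoid bodies are floating clusters in which embryonic stem cells leave self-renewal and form mixed cell types, among them beating cardiomyocytes. Both genotypes were grown for 10 days in low attachment plates, and both lacked LIF, the cytokine that keeps mouse stem cells undifferentiated. There were 3 mutant and 3 wild type samples, hybridised in pairs on 3 two-colour arrays, with the mutant RNA in the green dye (Cy3) for replicates 1 and 3 and in the red dye (Cy5) for replicate 2. The labels call the samples biological replicates without saying whether they came from separate cell lines, so the p-values measure the spread between these samples, and line and genotype cannot be told apart.

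Heart formation begins when mesoderm commits to a cardiac fate under a small set of DNA-binding proteins that act on each other's genes. The homeobox factor Nkx2-5 works with GATA and T-box partners in the early heart tube. Isl1 marks the progenitors of the second heart field, and the basic helix-loop-helix factors Hand1 and Hand2 shape the ventricles. Mef2c and the coactivator Myocd switch on contractile genes, Smyd1 is a muscle methyltransferase, and Irx4 marks ventricular myocardium. Several of these genes are also used outside the heart: Hand1 in trophoblast and extraembryonic mesoderm, Hand2 in limb and sympathetic neurons, Isl1 in motor neurons and islet cells, and Mef2c in endothelium and neurons.

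Sequences upstream of the start sites were available from RefSeq for 7 of the 10 genes (build GRCm38.p6, 250 bases before the start to 50 after it, 9 entries since Mef2c has 3); Hand1, Tbx5 and Myocd had none. Those of Hand2 and Nkx2-5 are shown because these were the members whose 3 mutant signals all lay below their 3 wild type signals. They lie on the plus strand at chr8:57320733-57321032 and on the minus strand at chr17:26841516-26841815, and run 5′ to 3′ along the gene. Capitals mark each match to CANNTG, the E-box core that basic helix-loop-helix factors bind.
Hand2: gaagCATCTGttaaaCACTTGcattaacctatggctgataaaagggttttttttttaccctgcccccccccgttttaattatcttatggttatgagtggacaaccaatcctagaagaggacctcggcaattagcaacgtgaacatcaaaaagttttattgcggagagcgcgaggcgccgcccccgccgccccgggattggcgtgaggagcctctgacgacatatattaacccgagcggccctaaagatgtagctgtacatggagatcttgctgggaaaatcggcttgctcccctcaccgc
Nkx2-5: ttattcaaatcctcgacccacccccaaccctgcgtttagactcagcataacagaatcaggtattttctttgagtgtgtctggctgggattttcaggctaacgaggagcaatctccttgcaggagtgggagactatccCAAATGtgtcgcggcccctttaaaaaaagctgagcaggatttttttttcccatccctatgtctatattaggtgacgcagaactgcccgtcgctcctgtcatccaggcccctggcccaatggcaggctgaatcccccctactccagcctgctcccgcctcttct

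On either strand, Hand2 held 2 E-box cores and 2 matches to GATAA, the core of GATA sites. It also held 1 match to AAGTG, an NKX2 core, which overlaps the second E-box, while Nkx2-5 held 1 E-box core and no match to GATAA or AAGTG. Such short motifs are common: of 32851 promoter windows of this length, 72.3% held CANNTG, 25.4% GATAA and 46.4% AAGTG. Of the 9 member windows 6 held CANNTG, 3 held GATAA and 5 held AAGTG. The T-box core AGGTGT was in 1 of the 9 and in 13.7% of all windows, and the MEF2 palindrome was in 0 of the 9 and in 3.69% of all windows.

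Signals below are normalised log2 intensities of each channel, and ratios are mutant over wild type on the log2 scale. To be tested, a probe needed a well-above-background call from the scanner software in all 3 samples of the mutant, of the wild type or of both. Such calls covered 45.8% to 61.9% of gene spots in the mutant channels and 48.1% to 73.7% in the wild type channels. Of 15426 genes tested with limma, 0.298% passed at an adjusted p of 0.05, either way, against 0 of the 7 tested members, of which 1 (Hand2) had an unadjusted p under 0.05. That looser mark was met by 22.7% of all tested genes (3502 of 15426), the share set beside the counts at an unadjusted p below. The members and lists were chosen with earlier results of these data known, so a count above that share is no separate support. The median log2 ratio was −0.40 over the 7 members and 0.03 over all genes, whose middle 50% lay between −0.39 and 0.48. Replicate numbers are those of the scanner files. In the authors' deposited table of ratios, the column of replicate 1 correlated best with the scanner ratios of replicate 3 (r = 0.915 over spots, against 0.771 with replicate 1). The deposited column of replicate 3 correlated best with those of replicate 1 (r = 0.983, against 0.842), so which of these 2 arrays is which is not settled. Both have the mutant in Cy3, so an exchange would leave the means and their tests as they are. Over all tested genes the scanner ratios of replicates 1 and 3 correlated at r = 0.879. Those of replicate 2, the array with swapped dyes, correlated at only r = 0.151 with replicate 1 and 0.18 with replicate 3. The means below thus average arrays of unequal agreement, and dye and replicate cannot be told apart. All 4 probes of Dido1, the targeted gene, were measured, with mean log2 ratios of 1.74, −1.92, 1.12 and 1.36, so the probes did not move together, and where they lie relative to the truncation is not given in the sources used here.

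The HAND factors had the lowest ratios of the tested members. Hand2 (NM_010402, probe on mm9 chromosome 8, 59803220 to 59803279, plus strand) had log2 signals of 7.10, 8.79 and 8.80 in the mutant samples of replicates 1 to 3, against 9.26, 9.75 and 10.18 in the wild type samples. Every mutant sample lay below every wild type sample, and the mutant sample of replicate 1 was well below the other two. Such a separation, mutant below wild type, was seen for 10.3% of all tested genes. The mean signals were 8.23 ± 0.98 in the mutant and 9.73 ± 0.46 in the wild type (SD, n = 3 each).

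The Hand2 log2 ratio was −2.16, −0.96 and −1.38 on the 3 arrays, with a mean of −1.50 ± 0.32 (limma SE) and a 95% interval, not adjusted for the number of genes, of −2.32 to −0.68. Adjusted over all 15426 genes, p was 0.0850 (limma), above the threshold, and 2.84% of the tested genes had a lower mean ratio. Hand2 passed with a dye term in the model (−1.37, adjusted p = 0.0107) and without replicate 2 (−1.77, adjusted p = 0.00467). In those fits 14.9% and 21.7% of all genes passed in the lower direction, and in both the residual spread comes only from the 2 arrays labelled the same way, replicates 1 and 3. Without replicate 1 the ratio was −1.17 (adjusted p = 0.490).

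Hand1 was read by a bright and a dim probe. The bright probe (NM_008213, chromosome 11, 57642342 to 57642401, minus strand) had log2 signals of 9.39, 10.46 and 9.66 in the mutant samples and of 10.44, 10.93 and 10.13 in the wild type samples. The groups overlapped, since the mutant sample of replicate 2 was above the wild type samples of replicates 1 and 3, but on each array the mutant was the lower. The log2 ratio averaged −0.66 ± 0.26 (adjusted p = 0.223, limma), a 1.58-fold lower mean, with an unadjusted 95% interval of −1.33 to 0.01.

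Without replicate 2 Hand1 passed (−0.76, adjusted p = 0.0373), again in the fit where 21.7% of genes did so in that direction. The dim Hand1 probe (ENSMUST00000108845, 57646257 to 57646316) was not well above background in any sample, and had ratios of −0.06, −0.63 and 0.00.

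**Figure D1:**
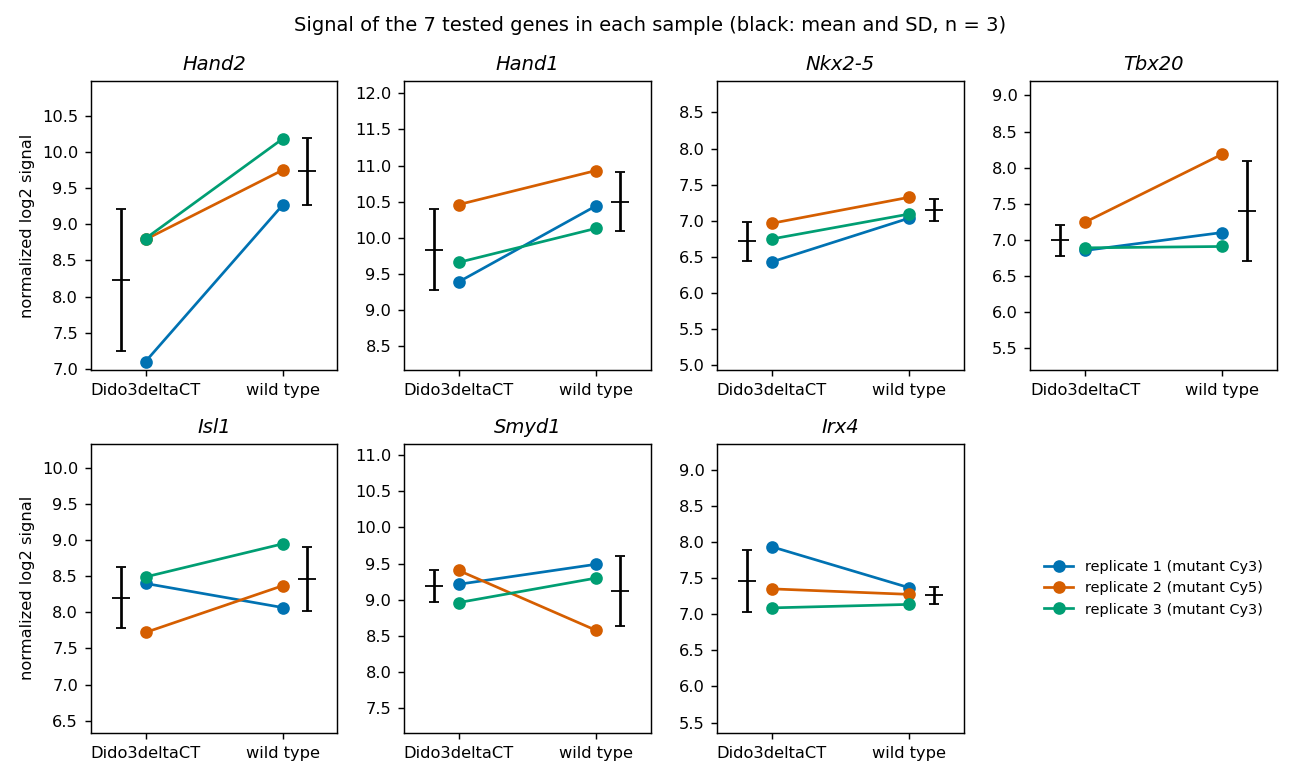
Normalised log2 signal of the 7 tested genes, 1 panel each, with the Dido3deltaCT samples on the left and the wild type samples on the right; lines join the samples of 1 array, black bars give the mean and SD (n = 3), and every panel spans the same height. Hand2 and Nkx2-5 show no overlap between genotypes, Hand1 is lower in the mutant on each array, and for Isl1, Smyd1 and Irx4 the mutant is higher on some arrays and lower on others.

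Of the homeobox genes, Nkx2-5 was lower in the mutant on every array, by a small amount. The Nkx2-5 probe (NM_008700, chromosome 17, 26975621 to 26975680, minus strand) had log2 signals of 6.43, 6.97 and 6.75 in the mutant samples, against 7.04, 7.33 and 7.09 in the wild type samples. The groups did not overlap, as for Hand2, but the signal was near background: it was well above it in 1 of the 3 mutant samples and in all 3 wild type samples. Nkx2-5 therefore entered the test through the wild type alone. Its ratio of −0.44 ± 0.24 (adjusted p = 0.344, limma) is 1.35-fold, with an offset of 50 intensity units. The Nkx2-5 ratio was −0.62 with an offset of 16 and −0.30 with no background correction. With the scanner software's processed signals it was −1.23 (adjusted p = 0.135, limma). Processed signals differ in background handling as well as in the offset, and the cause of this range was not tested.

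Isl1 is the member with the most precise reading on each array, because its probe (NM_021459, chromosome 13, 117088774 to 117088833, minus strand) was printed on 10 spots. After 1 outlier spot was left out on replicate 1, the mean log2 ratio over spots was 0.33 ± 0.10 on replicate 1 (SD, 9 spots). It was −0.65 ± 0.10 on replicate 2 and −0.46 ± 0.07 on replicate 3 (SD, 10 spots each). The spots of replicate 1 lay between 0.19 and 0.49 and those of replicates 2 and 3 between −0.78 and −0.33, so the sign of Isl1 differed between arrays by far more than the spread between spots.

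The 3 array means of Isl1 had an SD of 0.52, several times the SD over spots on any array, and spots of 1 array share their RNA and are not replicates of the genotype. The mutant signals were 8.40, 7.72 and 8.49, against wild type signals of 8.07, 8.37 and 8.95, and the groups overlapped. The mean ratio of Isl1 was −0.26 ± 0.30 (adjusted p = 0.645, limma), with an unadjusted 95% interval of −1.02 to 0.51.

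**Figure D2:**
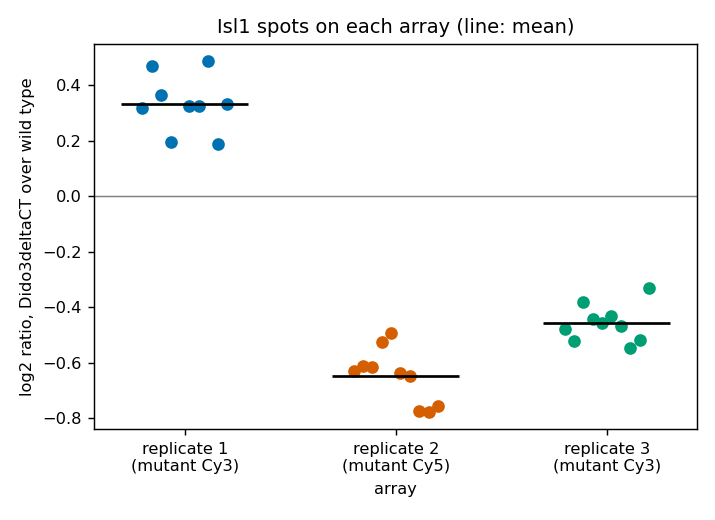
Log2 ratio, Dido3deltaCT over wild type, of each spot of the Isl1 probe on the 3 arrays (9, 10 and 10 spots), with the array mean as a line. The spots of each array lie close together, above 0 on replicate 1 and below 0 on replicates 2 and 3.

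Irx4 (NM_018885, chromosome 13, 73406712 to 73406771, plus strand) had log2 signals of 7.93, 7.35 and 7.09 in the mutant samples, against 7.37, 7.27 and 7.14 in the wild type samples. The highest value was the mutant sample of replicate 1, the groups overlapped, and the mutant was well above background in 2 of 3 samples. The Irx4 ratio was 0.20 ± 0.26 (adjusted p = 0.686, limma), with an unadjusted 95% interval of −0.47 to 0.86, and was not distinguishable from 0.

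The T-box genes were dim. Tbx20, a factor of the heart chambers and valves, was read by 3 probes annotated to different transcript variants on chromosome 9, minus strand. The tested one (NM_020496, 24544715 to 24544774) had log2 signals of 6.86, 7.25 and 6.89 in the mutant samples and of 7.10, 8.19 and 6.91 in the wild type samples. The wild type sample of replicate 2 stood above the other 5 samples, and the ratios were −0.25, −0.94 and −0.02.

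The mean ratio of this Tbx20 probe was −0.40 ± 0.29 (adjusted p = 0.462, limma). The probe of NM_001205085 (24563177 to 24563236) had ratios of −0.74, −0.05 and 0.00, and that of NM_194263 (24527750 to 24527809) had 0.13, −0.69 and −0.06. Both were dim: the NM_001205085 probe was well above background in 1 mutant and 2 wild type samples, and the NM_194263 probe in 1 sample of each genotype. The array with the lowest ratio was thus replicate 2 for 2 of the Tbx20 probes and replicate 1 for the remaining probe.

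Tbx5, which specifies the left ventricle and atria, was well above background in 1 mutant and 2 wild type samples (NM_011537, chromosome 5, 120334087 to 120334146, plus strand) and was not tested. Its log2 signals were 6.78, 6.54 and 7.25 in the mutant samples, against 6.73, 6.30 and 6.86 in the wild type samples. The mutant was slightly the higher on each array, with ratios of 0.04, 0.25 and 0.39, and the groups overlapped.

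Of the muscle coactivators and chromatin factors, Smyd1 alone was bright. Its bright probe (NM_009762, chromosome 6, 71165337 to 71165396, minus strand) had log2 signals of 9.21, 9.40 and 8.96 in the mutant samples, against 9.49, 8.58 and 9.30 in the wild type samples. The ratios of Smyd1 were −0.28, 0.83 and −0.34, so the array with swapped dyes pointed the other way from the remaining pair, and the groups overlapped. Their mean of 0.07 ± 0.33 (adjusted p = 0.919, limma) has an unadjusted 95% interval of −0.78 to 0.92, which leaves room for a change of that size either way.

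A model with a dye term put the red over green dye effect of this Smyd1 probe at 0.57 and its genotype ratio at 0.26. With only replicate 2 in the swapped orientation, dye and replicate cannot be told apart. The second Smyd1 probe (71212063 to 71212122) was not well above background in any sample.

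Mef2c was not well above background in any of the 6 samples. Its log2 signals were 6.23, 6.34 and 6.10 in the mutant samples and 6.28, 6.22 and 6.30 in the wild type samples, so no level or fold can be given. The reading rests on 1 probe, shown because it is the member probe whose genome coordinates (mm9 chr13:83772788-83775025, plus strand) span 2238 bases for 60 bases of sequence, so that it is split between separate stretches of the genome.
Mef2c: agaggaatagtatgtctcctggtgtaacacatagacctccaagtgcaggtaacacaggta

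Myocd, a coactivator of serum response factor in heart and smooth muscle, was well above background in 1 wild type sample and in no mutant sample (NM_145136, chromosome 11, 64991930 to 64991989, minus strand). The log2 signals of Myocd were 6.38, 6.49 and 6.13 in the mutant samples, against 6.55, 6.92 and 6.12 in the wild type samples. No lower bound on a fold could be set, since the wild type mean did not exceed the lowest signal called above background.

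**Figure D3:**
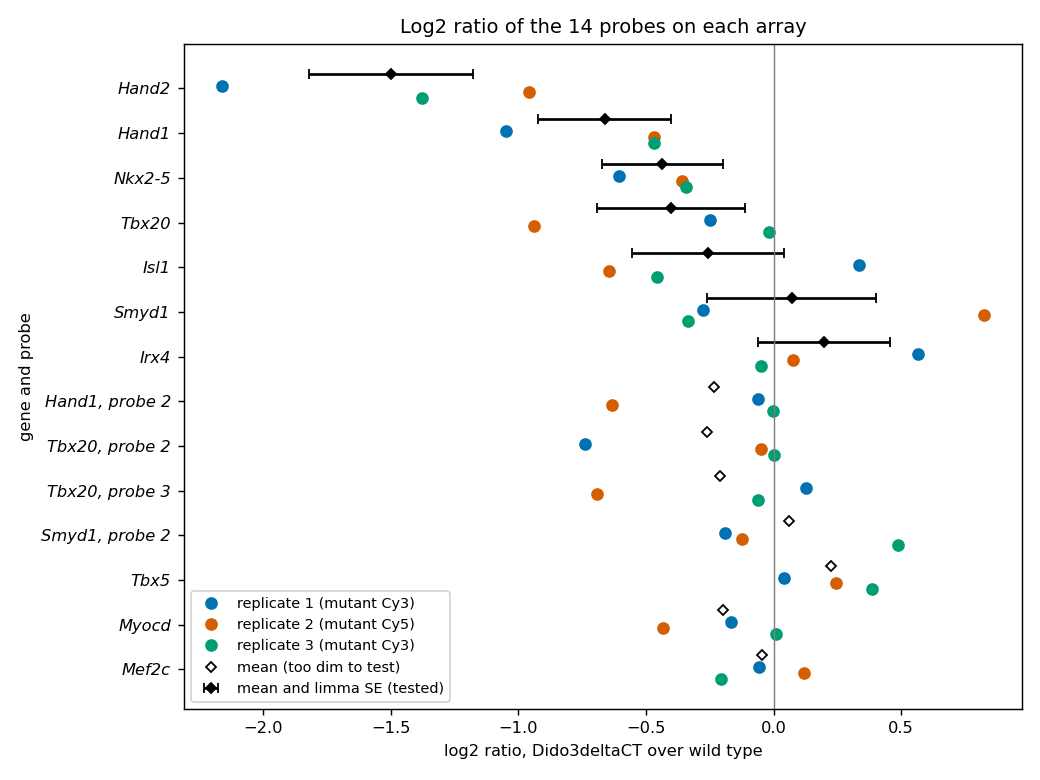
Log2 ratio, Dido3deltaCT over wild type, of the 14 probes of the 10 genes on each array (coloured points), with the mean and limma SE (n = 3) for the 7 tested probes and the mean alone for the 7 that were too dim. All 3 points lie below 0 for Hand2, Hand1, Nkx2-5 and the tested Tbx20 probe, and replicate 2 stands apart for Smyd1.

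Over the tested members, 4 of 7 had a ratio below 0 on all 3 arrays (Hand2, Hand1, Nkx2-5 and Tbx20), while 22.7% of all tested genes were below 0 on all 3. The filter let Nkx2-5, Tbx20 and Irx4 in through the wild type signal alone, so this count is a description of the genes that could be measured. Summed over the 10 members, the processed intensity ran from 1488 to 2038 units in the mutant samples and from 2534 to 3445 units in the wild type samples, which do not overlap. Being unlogged, this sum gives most weight to the brightest genes, Hand1, Hand2 and Smyd1. Of the 7 tested members 2 were separated in that direction by themselves, against 10.3% of all tested genes. How often sums of other gene sets separate was not tested, which also limits the sums of the lists below. In RNA of whole embryoid bodies, fewer cells that use a gene and less RNA per cell cannot be told apart.

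By likeness over the 6 channels, each gene centred on its mean, the genes nearest to Hand2 were Cd248 (distance 0.430), Rbms3 (0.448) and Lamb2 (0.464), in log2 units. Their mean ratios were −1.36 ± 0.29 for Cd248, −1.42 ± 0.26 for Rbms3 and −1.44 ± 0.26 for Lamb2, against −1.50 for Hand2, and none of the 3 passed (adjusted p from 0.0677 to 0.0844, limma). Since the 3 were picked on the same signals, ratios near that of Hand2 follow from the choice.

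Other regulators of heart development were given by a list of 39 genes, of which 29 were tested: 0 rose, 0 fell and 29 did not pass (limma, with 14 at an unadjusted p under 0.05, against 22.7% of all genes). Their median ratio was −0.40, the same as that of the 7 members to 2 decimals. On all 3 arrays 14 were below 0, against 22.7% of all tested genes, and 2 were above 0. The share of all genes above 0 on all 3 was not counted. The nuclear receptor genes Nr2f1 and Nr2f2, used in atrial and venous cells as well as in neural tissue, had lower means, 32.1-fold for Nr2f1 (−5.40, −3.44 and −6.18, adjusted p = 0.0502) and a log2 ratio of −3.57 ± 0.56 for Nr2f2 (adjusted p = 0.0597). Nr2f2 was well above background in 2 of 3 mutant samples and entered the test through the wild type alone. Gata6, a zinc finger partner of Nkx2-5 that also directs extraembryonic endoderm, had −2.80 ± 0.40 (adjusted p = 0.0559). The highest was Wt1, a factor of the epicardium and kidney, at 1.63 ± 0.60 (adjusted p = 0.203), with −0.05 on replicate 2.

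Among 26 signals and receptors that guide cardiac mesoderm, 19 were tested and 0 rose or fell (limma, with 7 at an unadjusted p under 0.05, against 22.7% of all genes), with a median of −0.17. The receptor gene Pdgfra, of cardiac mesoderm and parietal endoderm, had −2.87 ± 0.35 (adjusted p = 0.0527), and Flrt3, a membrane protein that binds FGF receptors, −2.55 ± 0.32. Nodal, a ligand that patterns mesendoderm, had 1.93 ± 0.25 (adjusted p = 0.0543 for Flrt3 and Nodal, limma).

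Contractile and excitation genes of cardiomyocytes, several of which these factors are known to activate, were represented by 39 genes. The test covered 21 of the 39, with a median ratio of −0.39. It called 1 gene lower and 0 higher, and 20 missed the threshold, against 0.298% of all genes passing either way. The looser mark, an unadjusted p under 0.05 (limma), was met by 9 of the 21, against 22.7% of all genes. Myl3, the ventricular and slow muscle myosin light chain, fell 15.4-fold (−3.95 ± 0.35, adjusted p = 0.0417, limma). Myh7, the beta heavy chain, had −2.25 ± 0.32, and Myl7, the atrial regulatory light chain, had −1.69 ± 0.25 (adjusted p = 0.0559 for both, limma). Myh7 was well above background in 1 of 3 mutant samples, so it entered the test through the wild type alone. Myh6, the alpha heavy chain, had 1.81 ± 0.34 (adjusted p = 0.0716), opposite in sign to Myh7. Pln, Sln, Cacna1c and Xirp1 were the only 4 of the 39 not well above background in any sample. A call in 1 sample of either genotype was enough for that count, so it does not show cardiomyocytes in each genotype. Of the genes named here, Myl3, Myl7 and Myh6 were well above background in all 3 samples of both genotypes. The summed processed intensity of the 39 genes ran from 10782 to 22181 units in the mutant samples and from 17803 to 43167 units in the wild type samples, which overlap.

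**Figure D4:**
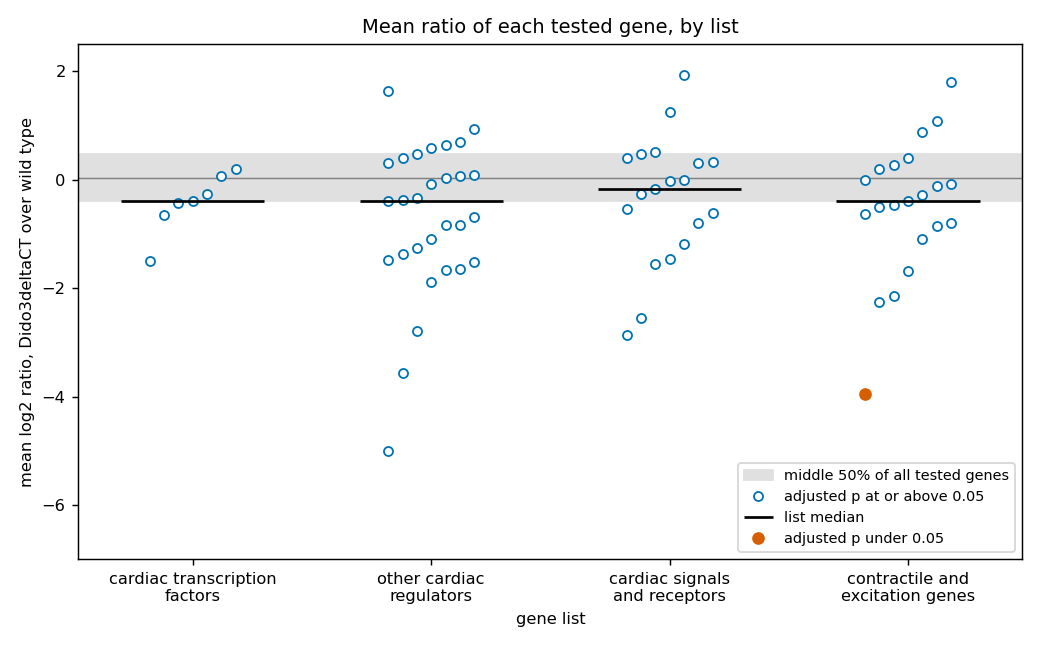
Mean log2 ratio, Dido3deltaCT over wild type, of each tested gene of the 10 cardiac transcription factors and of 3 related lists (7, 29, 19 and 21 genes), with list medians as lines and the middle 50% of all tested genes shaded. The medians are −0.40, −0.40, −0.17 and −0.39, and Myl3 is the gene that passed the test.

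Markers of other cells that use these factors were set beside them, and their part in the members' values was not tested. Their counts at an unadjusted p under 0.05 stand against 22.7% of all genes, and most lists hold too few tested genes to read a share from. Among the genes named from them, Cdx2, Cdh5, Icam2 and Myh8 entered the test through the wild type signal alone. Prl3d1, Pecam1, Ins1, Myh3 and Actn3 entered it through the mutant signal alone. Of 8 tested trophoblast genes, where Hand1 is also active, 0 rose and 0 fell (limma, 4 at an unadjusted p under 0.05). Ascl2 had 1.80 ± 0.37 and Tfap2c 1.32 ± 0.26, while Cdx2 had −1.71 ± 0.29. Prl3d1, of giant cells, was the highest at 1.90 ± 0.50 (adjusted p from 0.0631 to 0.118 for these 4). The trophoblast sum ran from 41891 to 212019 units in the mutant samples and from 26882 to 54681 units in the wild type samples, and Tpbpa was not well above background in any.

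Of 7 tested endothelial genes, where Mef2c is also used, 0 passed (limma, 4 at an unadjusted p under 0.05). Cdh5 had −1.49 ± 0.25, Sox17 −2.60 ± 0.45 and Icam2 −1.04 ± 0.25, while Pecam1 had 0.19 ± 0.30 (adjusted p from 0.0630 to 0.741, limma). Of these, Sox17 is not particular to endothelium. The endothelial sum ran from 4978 to 9553 units in the mutant samples and from 13638 to 26163 units in the wild type samples, which do not overlap, and Tie1 was not well above background in any sample.

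Of 12 motor and sympathetic neuron genes, which bear on Isl1 and Hand2, 4 were tested and 0 passed (limma, 0 at an unadjusted p under 0.05). Isl2 had −0.75 ± 0.36, Phox2a 0.42 ± 0.27 and Chat 1.00 ± 0.74, with Chat at 2.28, −1.24 and 1.95 on the 3 arrays. Mnx1 was not well above background in any sample, and the list's sum ran from 4272 to 27485 units in the mutant samples and from 4469 to 9355 units in the wild type samples. Of 9 islet and foregut genes 2 were tested and 0 passed (limma, 1 at an unadjusted p under 0.05). Sox2, which is not particular to these cells, had 1.05 ± 0.25, and Ins1 had 0.44 ± 0.31. That sum ran from 2040 to 9273 units in the mutant samples and from 930 to 4197 units in the wild type samples, with Gcg and Pax4 never well above background.

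Skeletal muscle, which shares Mef2c and Smyd1, was represented by 6 tested genes of 14, and 0 passed (limma, 2 at an unadjusted p under 0.05). Myh3, embryonic myosin, had 2.44 ± 0.28 (adjusted p = 0.0502), Tnni2 0.65 ± 0.24, Actn3 0.66 ± 0.28 and Myh8 −0.30 ± 0.30. The defining factors Myod1, Myog and Myf5 and the receptor subunit Chrna1 were not well above background in any sample. The skeletal sum ran from 1284 to 1887 units in the mutant samples and from 455 to 955 units in the wild type samples. These ranges do not overlap, with the mutant the higher.

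Of 8 smooth muscle genes, which bear on Myocd, 4 were tested and 0 passed (limma, 2 at an unadjusted p under 0.05). Acta2 had −2.30 ± 0.42 (adjusted p = 0.0697), Tagln −0.36 ± 0.30 and Smtn 0.70 ± 0.26. Myh11 and Lmod1 were not well above background in any sample, and the sum ran from 5249 to 13327 units in the mutant samples and from 5450 to 18689 units in the wild type samples.

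All 10 pluripotency markers were tested, and 2 rose, 0 fell and 8 did not pass, against 0.298% of all genes passing either way. At an unadjusted p under 0.05 there were 8 of the 10 (limma), against 22.7% of all genes. Zfp42 rose 8.98-fold (3.17 ± 0.26) and Dppa5a 6.36-fold (2.67 ± 0.24), both with an adjusted p of 0.0417 (limma). Esrrb had 2.80 ± 0.32, Dppa3 3.43 ± 0.87 and Klf4 −1.14 ± 0.31. Their sum ran from 143656 to 412738 units in the mutant samples and from 37287 to 88321 units in the wild type samples, which do not overlap.

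The sign of 6 of the 7 tested members held under every alternative run, while the calls of Hand2 and Hand1 did not. Hand2, Hand1, Nkx2-5, Tbx20 and Isl1 stayed below 0 and Irx4 above 0 under every alternative in which they were measured (15 or 16 each). These alternatives reuse the same 3 arrays or leave 1 out, so a held sign of the mean is no separate support. Irx4 was only 0.01 without replicate 1, and Isl1 was above 0 on replicate 1 itself. The ratio of Hand2 ran from −1.98 with the scanner software's processed signals to −0.91 in the authors' deposited table, and adjusted p from 0.00467 to 0.490. Smyd1 changed sign with median centring (−0.27) and without replicate 2 (−0.31).

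**Figure D5:**
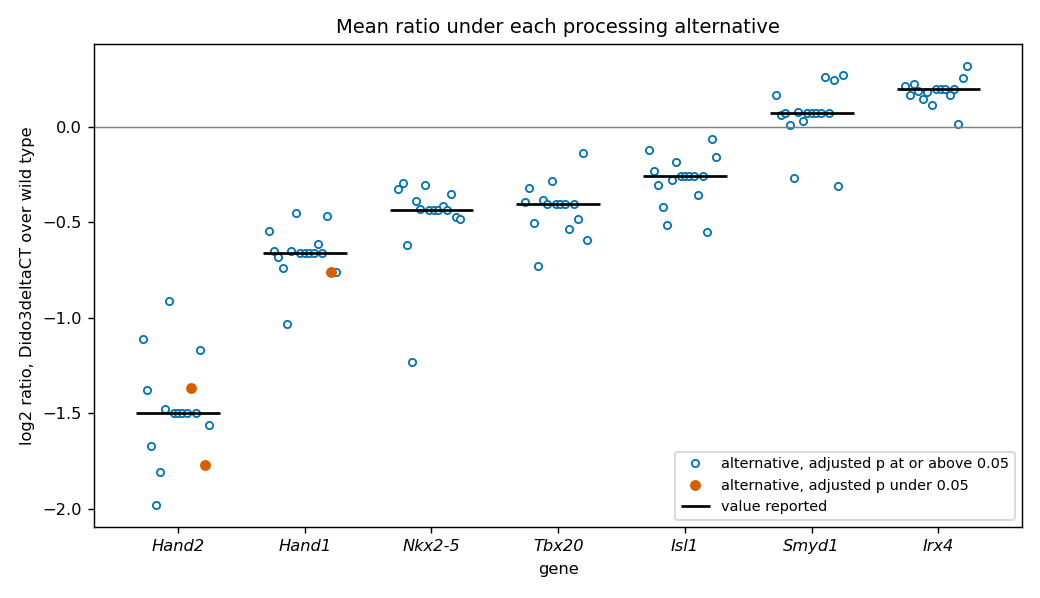
Mean log2 ratio, Dido3deltaCT over wild type, of the 7 tested genes under each processing alternative (points) with the reported value as a line. Filled points passed an adjusted p of 0.05, as Hand2 and Hand1 did when replicate 2 was left out and Hand2 did when a dye term was added.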

How the data were processed

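The scanner output was made with Agilent Feature Extraction 10.7.3.1, per the file headers, and gives the mean spot intensity and local background of both dyes, not normalized, with processed intensity values and other columns of flags. The authors' deposited table holds log2 ratios per spot, and the submitters' processing notes name limma. Mean signals were corrected with normexp (offset 50) and loess-normalized within arrays in R 4.3.3 with limma 3.58.1. Control spots (1377) had weight 0, outlier spots were left out, and 7 spots with a local background above 10 times the median were kept out of the background model. Channel levels were taken after Aquantile scaling. The 19140 probes called well above background in every sample of either genotype were reduced to the brightest per gene (15426). Each gene's 3 ratios entered a two-sided limma test of a mean of 0 (lmFit, eBayes), and p-values were adjusted over all genes by the Benjamini-Hochberg method. The fit has 2 residual and 3.04 prior degrees of freedom, so precision is limited by 3 arrays. It was tested on simulated data with independent noise at each gene's own fitted spread. That setting lacks the low correlation of replicate 2 with the other arrays, so the fit was not tested under it. Figures used matplotlib 3.10.9.

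The members and lists were chosen with earlier results of these data known. Named from each further list were genes past the threshold, the 3 of smallest p, and those of highest and lowest ratio. Of 39429 probes 67.9% took symbols from GRCm38.p6. Summed intensities use the processed signal of each gene's brightest probe. Each array pairs 1 mutant with 1 wild type sample, so the fit is paired by array. The 3 arrays lie on 1 slide. Alternatives were changed one at a time.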

Additional observations from a re-analysis of the deposited data

How the results depend on the processing

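The calls rest on few arrays, and counts over all genes moved with most settings. The reported 32 genes higher and 14 lower became 0 and 0 with the extreme-background spots in the model (1684 at an unadjusted p under 0.05, limma) and in the authors' deposited table (3057). They became 1 and 1 with no filter on dim probes, 3 and 1 with both channels above background, 4 and 3 with median centring, 63 and 46 with scaling between arrays, 67 and 36 with the mean over a gene's probes, 75 and 43 with all probes as features, 86 and 57 with an offset of 16, 179 and 96 with unpaired channels (no replicate block), 261 and 168 with processed signals, and 2449 and 2300 with a dye term. With 1 replicate left out they ran from 3 to 3963 higher and from 2 to 3345 lower, the largest counts being those without replicate 2. The share of calls that were higher was 69.6%, against 57.1% with median centring, which moved the median of all genes to −0.22, and 57.8% with scaling. The cause of these shifts was not tested.

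Of the members, 0 were higher under any setting, and 0 were lower except with a dye term (1, Hand2) and with 1 replicate left out (0 to 2, the 2 being Hand2 and Hand1 without replicate 2). In the reported fit 1 of the 7, Hand2, had an unadjusted p under 0.05. The members' median ratio of −0.40 was −0.30 with no background correction, −0.50 with an offset of 16, −0.73 with processed signals, −0.28 in the authors' deposited table and −0.23 with no filter, over all 10 genes. Smyd1, reported at 0.07, was −0.27 with median centring and ran from −0.31 to 0.28 with 1 replicate left out, the lowest being without replicate 2. Of 112 values of single members under alternatives, 3 newly passed the threshold and 2 changed sign. Signal over background limits Nkx2-5, Tbx20, Irx4, Tbx5, Mef2c and Myocd.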
